A study of Drosophila melanogaster with 2 samples.

Results

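Among the 3257 Sry-beta peaks that the deposited IDR list keeps for both replicates, 984 lay at promoters that do not share their upstream side with a gene on the other strand. A peak was counted here when its summit, the base of highest signal, was within 500 bp of the nearest start site (TSS) of a protein-coding gene in the Ensembl BDGP6 release 115 annotation, and when no protein-coding TSS on the other strand pointed away from that TSS, head to head, within 1000 bp. These 984 peaks are 30.2% of the list. The other peaks were 1004 at divergent promoters, where such a partner exists, and 1269 distal peaks over 500 bp from any protein-coding TSS. The 984 peaks had 855 nearest genes. For 107 of the 984, the gene had a divergent partner at another of its TSSs, and 877 were at genes paired at none.

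The data are ChIP-seq peak lists from whole Drosophila melanogaster embryos of mixed sex, aged 0 to 12 h, of the Sry-beta-GFP line, a transgenic line stably expressing Sry-beta with GFP fused to its C-terminus. There was 1 group with 2 biological replicates, numbered 2 and 4 in the labels, and no second genotype, treatment or age. Chromatin was sonicated to 200 to 800 bp, and the antibody's target is given as Sry-β. The free text of both labels calls the libraries an input control, whereas the assay title, the antibody and the deposited peak lists are those of a transcription factor ChIP, so they were read as ChIP libraries. The lists hold no read counts, so the depth behind each peak is unknown.

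Sry-beta, encoded in the serendipity gene cluster together with Sry-alpha and Sry-delta, is a C2H2 zinc finger protein with an N-terminal ZAD domain, a dimerisation domain found in a large family of insect transcription factors. Many housekeeping promoters of flies lie head to head with another gene and carry the DNA replication-related element (DRE), bound by DREF, or Motif 1, bound by M1BP. Promoters that stand alone include more of the developmentally regulated genes, and these more often use TATA or initiator elements and GAGA repeats. Whole embryos mix all cell types, so a peak can come from many cells or few.

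The first sequences shown are the windows of 101 bases around the summits of the peaks at Ten-m and CG10274, the 2 with the highest signal among the peaks that hold the palindrome TAGCTA. The windows are on dm6, read from the RefSeq release 6 genome and written 5′ to 3′ in the direction of the gene, at chr3L:22408086-22408186, minus strand for Ten-m and chr3L:6181979-6182079, minus strand for CG10274. Capitals mark TAGCTA here, and in the sequences after them also DRE, Motif 1, the AGAGATG core, the Sry-beta consensus and GAGA.
Ten-m: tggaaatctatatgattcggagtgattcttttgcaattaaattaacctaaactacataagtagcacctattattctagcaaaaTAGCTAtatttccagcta
CG10274: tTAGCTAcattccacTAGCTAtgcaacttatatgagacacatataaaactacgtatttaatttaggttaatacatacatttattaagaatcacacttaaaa
TAGCTA began 33 bases past the summit at Ten-m, and the CG10274 window held it at 49 and 35 bases before the summit. Both were among the 10 highest peaks of the class, with the authors' signal values of 11585 and 9709 in the IDR list. Ten-m encodes a teneurin, a transmembrane protein of synaptic partner matching. Its summit was rank 12 of 30000 in the list of replicate 2 and rank 2 in that of replicate 4.

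The windows that follow show other motifs in some of the strongest peaks that hold them: DRE at Karybeta3, an importin, and at sn, the actin-bundling protein fascin; Motif 1 at AIF, a mitochondrial oxidoreductase with a role in cell death; and the Sry-beta consensus at eRF3, a translation termination factor, Zir, a guanine nucleotide exchange factor, and CG11790. They lie at chr3R:4649284-4649384, plus strand for Karybeta3, chrX:7969455-7969555, plus strand for sn, chr2L:2151681-2151781, plus strand for AIF, chr2L:12436319-12436419, plus strand for eRF3, chr2L:94668-94768, plus strand for Zir and chr3R:25047617-25047717, plus strand for CG11790.
Karybeta3: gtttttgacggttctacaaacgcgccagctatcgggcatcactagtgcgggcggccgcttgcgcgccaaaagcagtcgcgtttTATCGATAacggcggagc
sn: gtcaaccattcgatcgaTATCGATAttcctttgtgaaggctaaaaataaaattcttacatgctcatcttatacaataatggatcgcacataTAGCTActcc
AIF: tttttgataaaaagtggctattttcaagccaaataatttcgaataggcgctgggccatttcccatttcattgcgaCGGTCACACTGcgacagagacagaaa
eRF3: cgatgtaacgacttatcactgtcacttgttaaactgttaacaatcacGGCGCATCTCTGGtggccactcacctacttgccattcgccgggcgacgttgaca
Zir: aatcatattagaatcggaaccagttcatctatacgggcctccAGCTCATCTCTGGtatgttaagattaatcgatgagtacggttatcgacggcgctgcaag
CG11790: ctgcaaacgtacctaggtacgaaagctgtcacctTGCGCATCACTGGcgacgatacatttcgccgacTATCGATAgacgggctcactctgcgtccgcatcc
At eRF3 and Zir the 13-base match to the consensus contained the AGAGATG core on the other strand, read as CATCTCT, and began 3 and 8 bases before the summit. The CG11790 window held a DRE as well as a consensus match. Motif 7 is not marked in these windows, and 8 of the 13 windows of the class with the consensus also held it. The sn window held a DRE before its summit and a TAGCTA after it.

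The peaks with the highest signal without a match to any of these 6 motifs included neur and CG14971, at chr3R:9033870-9033970, minus strand for neur and chr3L:3471310-3471410, minus strand for CG14971.
neur: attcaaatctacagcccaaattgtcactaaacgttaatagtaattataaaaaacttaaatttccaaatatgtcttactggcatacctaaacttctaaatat
CG14971: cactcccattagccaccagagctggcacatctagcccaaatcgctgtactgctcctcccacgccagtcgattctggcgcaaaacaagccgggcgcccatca
Of the other motifs searched, the neur window held a TATA box and that of CG14971 held Motif 7. The neur window had a GC content of 25.7% and that of CG14971 one of 59.4%. The CG14971 summit was rank 1 of replicate 2 and rank 55 of replicate 4, whereas neur was rank 87 of replicate 2 and rank 7 of replicate 4.

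The signal of the 984 peaks in the IDR list ranged from 169 to 11585, with a median of 291 and quartiles of 213 and 547. The signal is the authors' own value on a scale that the sources used here do not state, and it was compared only within a list. The peaks at divergent promoters had a median of 341 and the distal peaks one of 261. Among the 100 highest peaks of the whole list, 43 were at promoters without partner and 49 at divergent promoters; among the 500 highest the numbers were 170 and 241.

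The 20 highest peaks were all upstream of their TSS, at 38 to 355 bp, and 19 of the 20 were among the 3257 highest summits of both replicates. Their genes are of varied function. After Ten-m came Naus (10953), CG10274 (9709), CG7639 (9267) and CG31523 (9012). The summit at CG31523 was rank 5 in replicate 4, and in replicate 2 the nearest summit was 108 bp away, just over the 100 bp allowed for a match. The next were pyd (8818), the fly homologue of the junction scaffold ZO-1, and neur (8655), the ubiquitin ligase that drives endocytosis of the Notch ligand Delta. CG14971 (8410), CG13894 (8361) and meigo (8127), an endoplasmic reticulum protein, completed the first 10. Further genes were mdy (7423), a diacylglycerol acyltransferase; BI-1 (7389), a Bax inhibitor; Pgant3 (7212) and Pgant35A (7084), which start mucin-type O-glycosylation; and sprt (7134). The last 5 were Tpc1 (7024), a mitochondrial thiamine pyrophosphate carrier; CG1271 (6934); Dyrk2 (6852), a protein kinase; Rcc1 (6772), the Ran exchange factor; and CG42637 (6760). Only 5 of these 20 windows held TAGCTA, and none held DRE, the AGAGATG core or the Sry-beta consensus.

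The relaxed list of each replicate holds 30000 summits; 848 of the 984 peaks had one no more than 100 bp away in both of them and 3 in neither. Over these 848 peaks, which share each list's library, Spearman's rho between the replicates' signals was 0.631 and Pearson's r of the log10 signals 0.842. The number of peaks among the 500 highest of both lists was 140. Values in the 2 lists differ in scale, as for Ten-m with 2818 in replicate 2 and 8742 in replicate 4, so ranks were compared.

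**Figure D1:**
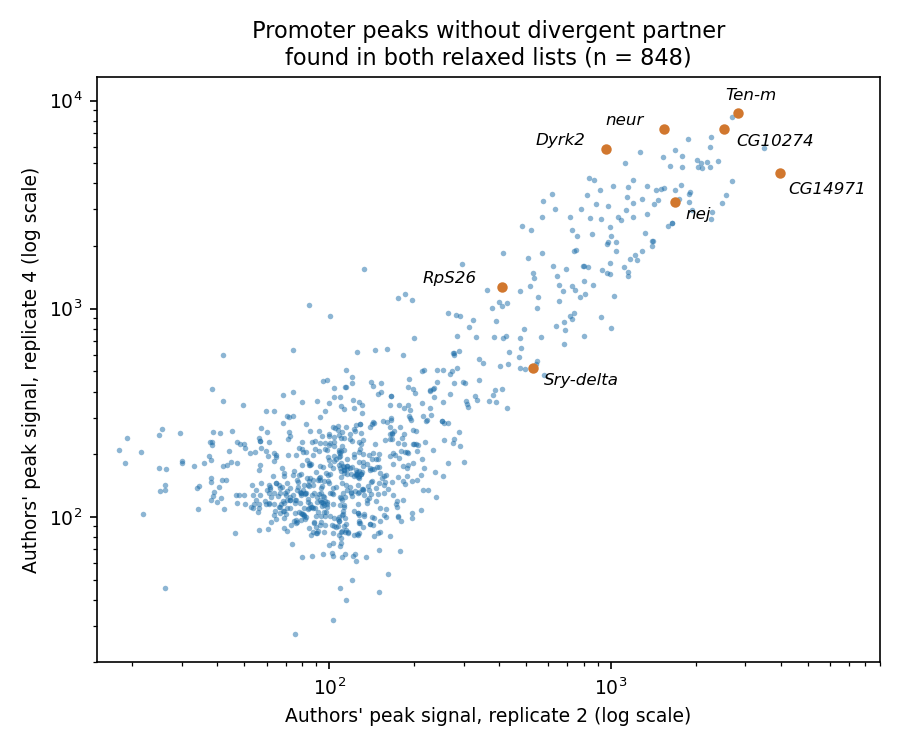
Authors' signal of 848 promoter peaks without divergent partner in replicate 2 (x axis, log scale) and replicate 4 (y axis, log scale); each point is a peak matched in both lists, and orange points are named genes. Ten-m, the highest of these peaks in the IDR list, has 2818 and 8742.

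Which replicate ranked a peak higher went with where the summit lay. Replicate 2 gave the better rank to 221 of the 282 peaks with summits 1 to 100 bp upstream (78.4%), but only to 57 of 188 with summits over 250 bp upstream (30.3%). It did so for 313 of 423 peaks above the class's median GC content (74%) and for 165 of 425 at or below it (38.8%), for 38 of 45 peaks with a DRE (84.4%), and for 41 of 72 with TAGCTA (56.9%). Over all 848 peaks the share was 56.4%, and it was 44.8% of 859 peaks at divergent promoters and 53.4% of 1118 distal peaks. GC content moved with position (median 42.6% at 1 to 100 bp upstream and 33.7% over 250 bp), and its part in the ranks was not tested.

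Summits at these promoters lay mostly upstream of the TSS. Of the 984, 849 were upstream (86.3%), 133 downstream and 2 at the TSS, with a median position 130 bp upstream. Summits within 100 bp of the TSS made up 37.8%, and those over 250 bp away 28.7%. From each replicate's 3257 highest summits alone, the upstream share was 85% ± 0.327 (SD, n = 2 replicates). At divergent promoters the median position was −68 bp, with 81.1% upstream, 63.9% within 100 bp and 3.88% over 250 bp away. These positions cannot be set against each other as a finding, because the partner distance in the rule limits them: a summit between paired TSSs cannot lie farther from the nearer one than the middle of the gap, while the room downstream is not limited in this way. With pairs within 300 bp alone, the upstream share at divergent promoters was 70.6%. The positions of the 2 classes are therefore given as a description. Peaks of one list are not replicates, so the p-values that follow compare 2 classes of peaks in these embryos and not conditions.

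**Figure D2:**
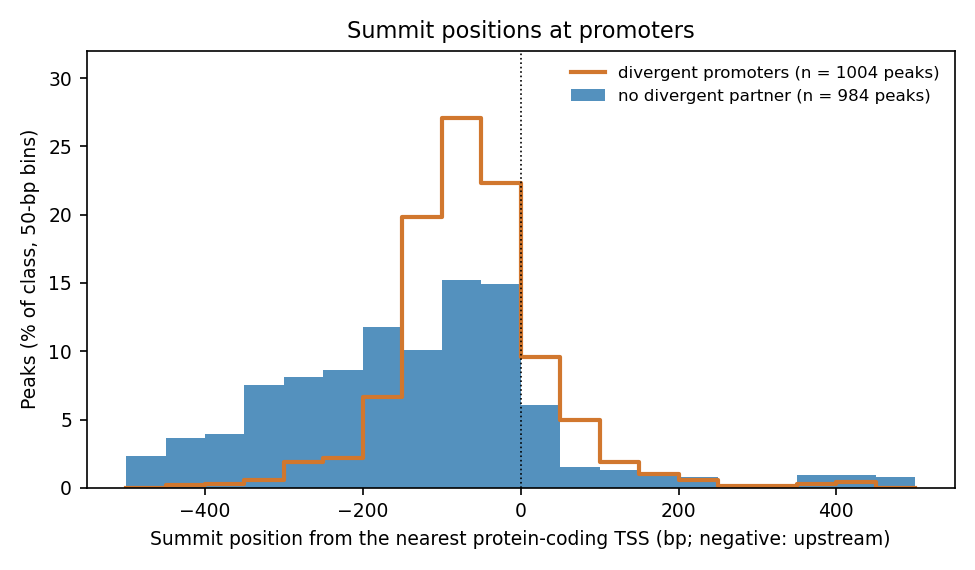
Share of peaks (y axis, % of each class) in 50-bp bins of the summit's distance from the nearest protein-coding TSS (x axis, bp, negative upstream); blue bars are the 984 peaks at promoters without divergent partner, the orange line the 1004 at divergent promoters. The blue bars have a median of −130 bp and the orange line one of −68 bp; upstream distances at divergent promoters are limited by the partner distance in the rule.

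Signal was lower than at divergent promoters. The median of the IDR list was exceeded by 492 of the 984 peaks (50%) and by 591 of the 1004 (58.9%; Fisher's exact test, adjusted p = 1.23e-04). From each replicate's 3257 highest summits, set against their own median, the shares were 51% ± 2.09 and 57.7% ± 0.564 (SD, n = 2). Summits among the 3257 highest of both replicates made up 59.2% of the class and 63.2% of divergent promoter peaks, a difference that did not pass (Fisher's exact test, adjusted p = 0.0725). Single replicates give another measure, the share of 1 replicate's 3257 highest summits found among those of the other. It passed from replicate 2's summits, with 55.5% against 66.5% (exact adjusted p = 8.17e-07), and not from replicate 4's, with 61.7% against 60.1%. Signal also varied with position. The median was 296 for summits over 250 bp upstream and 310 for those over 100 to 250 bp upstream. It was 285 at 1 to 100 bp upstream and 256 at or downstream of the TSS. These medians are a description with wide quartiles (230 to 793 in the group over 100 to 250 bp upstream).

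Few promoters without partner had a peak. TSSs of a gene within 500 bp of each other were counted as 1 promoter here. Of 12041 promoters without partner, 889 had a summit nearest to them within 500 bp (7.38%), against 954 of 5221 with a partner (18.3%). Each side of a divergent pair was counted on its own, and a summit went only to its nearest TSS, so these shares are not like for like. Counted by gene, 855 of 9654 genes with at least 1 TSS without partner had such a peak, or 8.86%. Most had 1 peak (734 genes), 114 had 2, 6 had 3 and 1 had 4. The gene with 4 was nej, which encodes the acetyltransferase CBP. Its summits, with signals of 4720, 4141, 3145 and 2020, share 1 interval at chrX:9685668-9687946 across several TSSs. In all, 76 of the 984 summits share their interval with another of the 984, so they are not separate regions. Ptpmeg2, a protein tyrosine phosphatase, had 3 peaks in separate intervals upstream of 3 TSSs, at 165, 197 and 208 bp and with signals of 281, 328 and 273. BEAF-32, an insulator protein, also had 3, of modest signal (357, 207 and 186).

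The kind of TSS differed between the classes, as it does in the annotation. An internal TSS was one over 500 bp downstream of the gene's start. It was the nearest for 236 of 984 peaks (24%) and 27 of 1004 at divergent promoters (2.69%, Fisher's exact test, adjusted p = 5.79e-49). Internal TSSs are also 24.6% of all promoters without partner and 5.31% of divergent ones, so the contrast is present in the annotation without any peak. The test cannot separate the peaks from the annotation. Among promoters without partner, 7.4% of internal ones had a peak and 7.38% of the others. At divergent promoters these shares were 9.03% and 18.8%. Genes spanning more than 2166 bp, the median of protein-coding genes, were nearest to 755 of 984 peaks (76.7%) and to 583 of 1004 (58.1%; Fisher's exact test, adjusted p = 1.54e-18). For this measure the promoters themselves differ less, at 61.1% and 53.8%. Within promoters without partner, 9.25% of those at long genes had a peak and 4.44% of those at short ones.

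A TSS whose upstream neighbour within 1000 bp runs in the same direction had a peak more often. Such tandem TSSs were 27.2% of promoters without partner and 38.4% of the peaks, and 10.3% of them had a peak against 6.27% of the others. Rcc1, CG10274 and Tpc1 are examples among the highest 20. A TSS inside another gene was nearest to 9.96% of the peaks and makes up 18.6% of these promoters. A noncoding gene head to head within 1000 bp was present for 83 peaks (8.43%), as for Dyrk2 at 628 bp, and at 4.18% of the promoters. Of promoters with such a noncoding partner 14.7% had a peak, against 7.06% of those without one. These shares were compared with no test.

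Sequence at the summits was examined with 13 motifs on both strands in windows of 101 bases. The words searched exactly were TATCGATA for DRE, GAGAGAG for the GAGA repeat, CAGGTAG for the Zelda site, CAGCTG for an E-box, the palindrome named above, and AGAGATG for the core shared by the Sry-beta and Sry-delta sites. The TATA box was any of TATAAAAA, TATAAAAG, TATATAAA and TATATAAG, and the initiator was TCAGTC, or the same word ending in T. Motif 1, Motif 6, Motif 7 and the consensus sites of Sry-beta and Sry-delta were searched by their published degenerate forms, the last 2 with up to 2 mismatches. At least 1 of the 13 was found in 390 of the 984 windows (39.6%) and none in 594.

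Motifs of housekeeping promoters and the palindrome were more frequent at the summits than in flanking windows 500 bp to either side; these shares carry no test. DRE was in 45 windows (4.57%), in 0.152% of the flanks and in 0.814% of all 12041 promoters without partner. The promoter windows had the same length and were centred 130 bp upstream of the TSS, the median summit position of the class. They do not cover the TSS, so their shares are not the motif content of whole promoters. Motif 1 was in 13 windows (1.32%), in none of the 1968 flanks and in 0.166% of promoters. Motif 7 was in 85 windows (8.64%), in 0.407% of flanks and in 1.08% of promoters. Of those 85, 13 also held the AGAGATG core and 8 the Sry-beta consensus, so these motif counts overlap. TAGCTA was in 75 windows (7.62%), in 1.07% of flanks and in 2.15% of promoters. The AGAGATG core was in 31 windows (3.15%) against 0.711% and 1.1%, and the Sry-beta consensus in 13 (1.32%) against 0.305% and 0.299%. The Sry-delta consensus was in 17 windows (1.73%) against 0.661% and 1.12%, and Motif 6 in 5 windows (0.508%) against 0.0508% and 0.191%. The E-box was in 7.11%, 4.98% and 4.74%, and the TATA box in 6.5%, 3.91% and 6.05%. The initiator was in 8.64%, 8.23% and 9.42%, and the Zelda site in 3 windows (0.305%), 0.711% and 0.714%. Neither the summit windows nor the promoter windows are centred on TSSs, so elements fixed to a TSS can fall outside them.

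**Figure D3:**
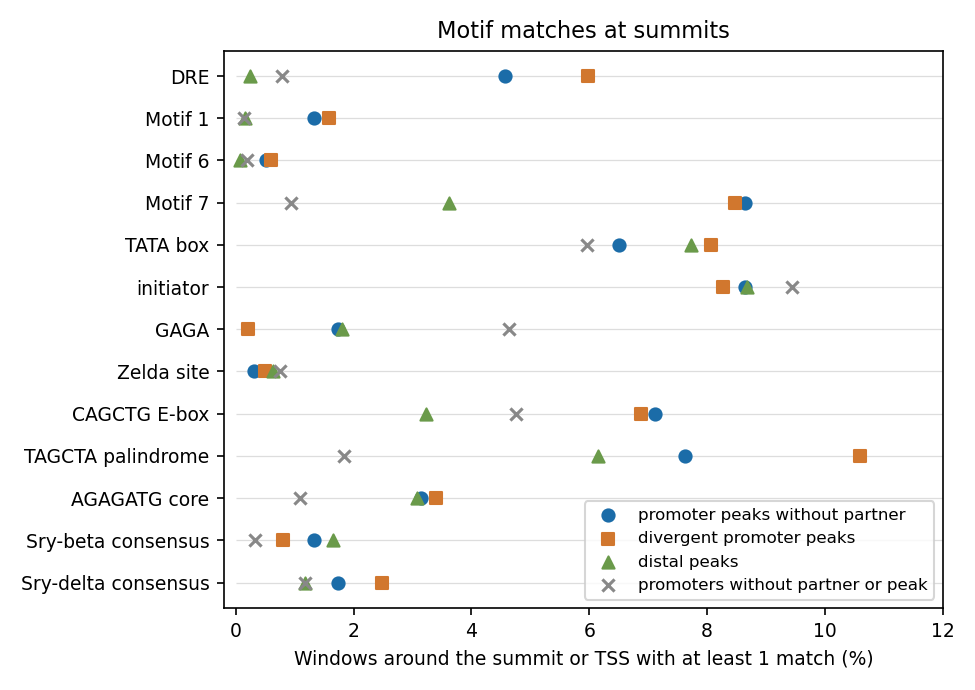
Share of 101-bp windows with at least 1 match (x axis, %) for each of 13 motifs (y axis) at summits of promoter peaks without partner (blue circles), divergent promoter peaks (orange squares) and distal peaks (green triangles), and at promoters without partner or peak (grey crosses). The windows of the grey crosses are centred 130 bp upstream of the TSS. Blue and orange lie close for most motifs; GAGA is 1.73% against 0.199%, and distal peaks hold DRE in 0.236%.

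Only GAGA, the site of GAGA factor, differed from divergent promoters among the 13 motifs. It was in 17 windows (1.73%) against 2 of 1004 (0.199%) (Fisher's exact test, odds ratio 7.25, adjusted p = 0.00439). The upstream windows of all promoters without partner hold it more often, at 4.76%, as do the flanks at 2.39%. Its share in all divergent promoters was not measured, so the test cannot separate the peaks from the sequence of their promoters. The call passed from replicate 2's list alone (odds ratio 4.21, exact adjusted p = 0.00302) and not from replicate 4's alone (3.4, exact adjusted p = 0.326). The odds ratio was 4.44 with a window of 25 bp on either side, 5.84 with a promoter window of 250 bp and 6.08 in the upper part of the IDR list, none of which passed. Against distal peaks, of which 1.81% held GAGA, it was 0.959. The 3 highest peaks with GAGA were at CG42671 (4374), Mapmodulin (1799) and Btk (556), a Tec family tyrosine kinase. TAGCTA was in 7.62% against 10.6% and did not pass (Fisher's exact test, unadjusted p = 0.0238, adjusted p = 0.155), and the other 11 motifs had adjusted p-values of 0.605 or 1. With 100 bp on either side, DRE (7.52% against 12.9%, exact adjusted p = 5.38e-04) and TAGCTA (11% against 16.8%, exact adjusted p = 6.51e-04) passed. So did the AGAGATG core (5.28% against 8.57%, exact adjusted p = 0.01), Motif 7 and the Sry-delta consensus. From replicate 2's list alone, DRE (5.3% against 9.08%) and TAGCTA (7.1% against 11.2%) passed.

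Peaks with TAGCTA had the higher signals. The 75 peaks had a median signal of 818, and the other 909 a median of 284; 57 of the 75 (76%) and 435 of the 909 (47.9%) exceeded the median of the IDR list. The same order held at divergent promoters, with medians of 1363 and 319, and at distal peaks, with 474 and 256. With the peaks ordered by signal and cut into 4 groups of 246, TAGCTA was in 3.66%, 3.66%, 4.88% and 18.3% of the peaks from the lowest to the highest. DRE did not follow signal, with 5.69%, 4.47%, 3.25% and 4.88%, and its peaks had a median of 279. The 13 peaks with the Sry-beta consensus had a median of 724, and 12 of them were among the 3257 highest summits of both replicates. Of these 13 peaks, 8 also held Motif 7, and the consensus was not examined apart from it. The strongest of the 13 was at prod, a gene for a satellite DNA-binding protein, with a signal of 5122. These medians were compared with no test.

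**Figure D4:**
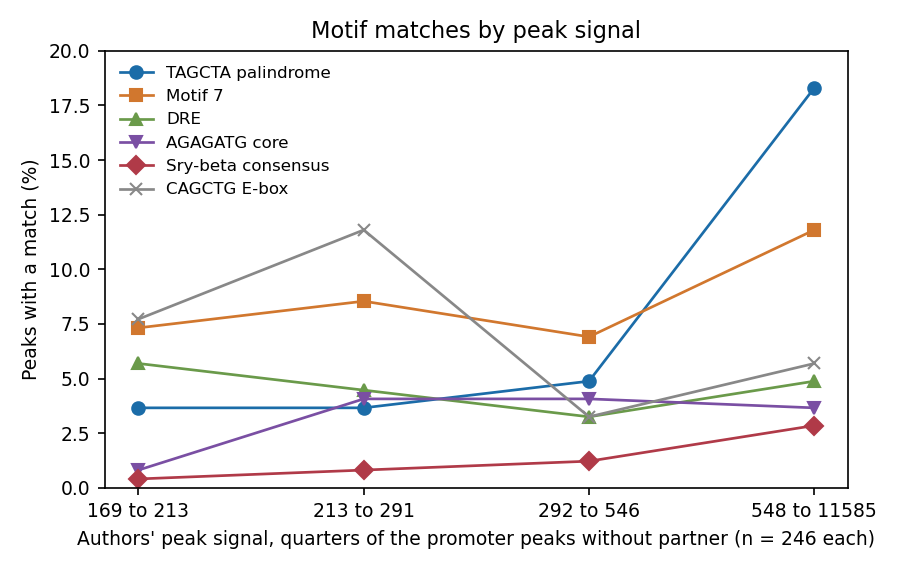
Share of peaks with a motif match (y axis, %) in 4 groups of 246 peaks by the authors' signal (x axis, signal range of each group) among the 984 promoter peaks without partner; each line is a motif. TAGCTA goes from 3.66% in the lowest group to 18.3% in the highest, and DRE stays between 3.25% and 5.69%.

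The chromosome arms were unequally represented. X held 20.7% of these peaks and 13.7% of divergent promoter peaks (Fisher's exact test, adjusted over 6 arms, p = 2.38e-04), chromosome 4 held 1.63% and 0.199% (p = 0.00186), and 3R held 22.3% and 27.7% (p = 0.0104). The 16 peaks on chromosome 4 were at 15 of its 98 promoters without partner (15.3%), which include those of ci, RpS3A, PlexA, lgs and pho, and 2 of its 24 divergent promoters had a peak (8.33%). On X the shares of promoters with a peak were 8.68% without partner and 15.6% with one, and on 3R 7.16% and 20.7%. With or without a peak, X holds 17% of all promoters without partner and 15.6% of divergent ones. For chromosome 4 these shares are 0.814% and 0.46%, and for 3R 23.5% and 24.7%. The annotation alone thus leans the same way, by less. The call on 3R was lost under several alternatives, among them a promoter window of 250 bp. On chromosome 4 the odds ratio was 6.83 and in the upper part of the list 10.9, where the call was lost (exact adjusted p = 0.0739). Against distal peaks none of these 3 arms passed: X held 20% of the distal peaks (odds ratio 1.05), chromosome 4 held 0.552% (2.87) and 3R 23.1% (0.954). The arms 2L, 2R and 3L did not pass, with adjusted p-values of 0.524, 0.639 and 0.066. The arm 3L, with 16.9% against 20.4%, passed under several alternatives. Among them were a promoter window of 1000 bp (exact adjusted p = 0.0237) and the upper part of the list (exact adjusted p = 0.0204). It also passed against distal peaks, of which it held 22.3% (exact adjusted p = 0.00848).

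Genes for cytoplasmic ribosomal proteins stood first among 22 lists of genes, which were chosen with earlier results of these data known and carry no test. Of their 40 genes with a TSS without partner, 21 had a peak (52.5%), against 8.86% of all such genes. The signals were modest: 182 to 1651 with a median of 303, beside 294 for the best peak of all 855 genes. RpS26 had the highest (1651), followed by RpS4 (477) and RpL27A (466), which had no summit within 100 bp in replicate 2. Of the 21 summits, 17 were within 100 bp of the TSS, with a median 22 bp upstream, closer than the 130 bp of the whole class. Replicate 2 gave the better rank to 16 of the 19 with a match in both lists (median ranks 1019 and 2276).

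Several lists of developmental signalling had a share above the background, but so did most other lists. Cell cycle regulators had 25%, proteasome subunits 15.4% and vesicle trafficking genes 14.3%, so such a share is not particular to signalling genes. Gene span, which went with having a peak, was not taken into account in these shares. In the Hedgehog pathway 4 of 9 genes had a peak: ci, its transcription factor, had 3074, and ihog, a co-receptor, 490; rdx, which targets Ci for degradation, had 322 and ttv, a heparan sulfate polymerase, 205. The ci summit was rank 235 in replicate 2 and 214 in replicate 4. In the Notch pathway it was 4 of 15, with neur far above numb (390), an inhibitor of Notch, mib1 (334) and the corepressor gro (292). In the Wnt pathway it was 5 of 20, led by dco (4115), a casein kinase, then gish (407) and sgg (362), the fly GSK3. The Hippo list had 4 of 15, led by lft (2117), kibra (248) and Mer (190), and the JAK-STAT list 2 of 7, Stat92E (344) and Su(var)2-10 (285). The EGFR, FGFR and Ras list had 4 of 20, with the secreted inhibitor aos (325), the ligand spi (303) and the adaptor stumps (302) at 302, 279 and 386 bp upstream, and dos (218) at 42 bp upstream. In replicate 2 the aos summit was rank 6328 and spi had no summit within 100 bp, whereas replicate 4 ranked them 1198 and 1140. The TGF-beta and BMP list had 1 of 17, shn (196).

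In axon guidance and adhesion 7 of 34 genes had a peak, Ten-m (11585), then fra (330), a netrin receptor, and PlexA (228), a semaphorin receptor. Junction and polarity proteins had 4 of 21, with pyd (8818), the apical scaffold sdt (2185) and yrt (478). Histone acetylation and deacetylation had 3 of 11, nej (4720), Ada2b (2958) and Sin3A (255). Polycomb and trithorax genes had 4 of 18, with ph-p (383), kis (263) and pho (182), and insulator and architectural proteins 3 of 9, BEAF-32 (357), CTCF (223) and dwg (175). Replicate 4 had no summit within 100 bp of the pho summit or of this BEAF-32 summit, and ranked ph-p 9055. In replicate 2 pho was rank 7826. Cell cycle regulators had 6 of 24, with Cdk8 (2854), the Mediator kinase, BubR1 (1812), of the spindle checkpoint, and Dp (298), the E2F partner. Proteasome subunits had 4 of 26, with Rpn11 (4874), the lid deubiquitinase, Rpt6 (409) and Rpn1 (202). Vesicle trafficking had 4 of 28, with Syx7 (747), Syx17 (238) and Rab5 (232), and the cytoskeleton 3 of 20, Rac2 (1269), Act42A (236) and sqh (217). Act42A had no summit within 100 bp in replicate 2.

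Nuclear receptors and ecdysone response genes had 2 of 19, Hnf4 (296) and Eip75B (256), close to the background share. Hnf4 had no summit within 100 bp in replicate 2. The ZAD zinc finger list had 2 of 13, and 1 of them was Sry-delta, the neighbour of Sry-beta and an activator of bicoid. Its summit was 32 bp upstream with a signal of 987, at rank 361 in replicate 2 and 654 in replicate 4; the other was dwg. Sry-alpha had a peak at a divergent promoter (309), and no peak had Sry-beta as its nearest gene. In 3 lists no gene had a peak: none of 25 homeobox genes of the Hox clusters and body plan, none of 154 odorant, gustatory and ionotropic receptor genes, and none of 129 genes for cuticle, chorion, yolk and accessory gland proteins.

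**Figure D5:**
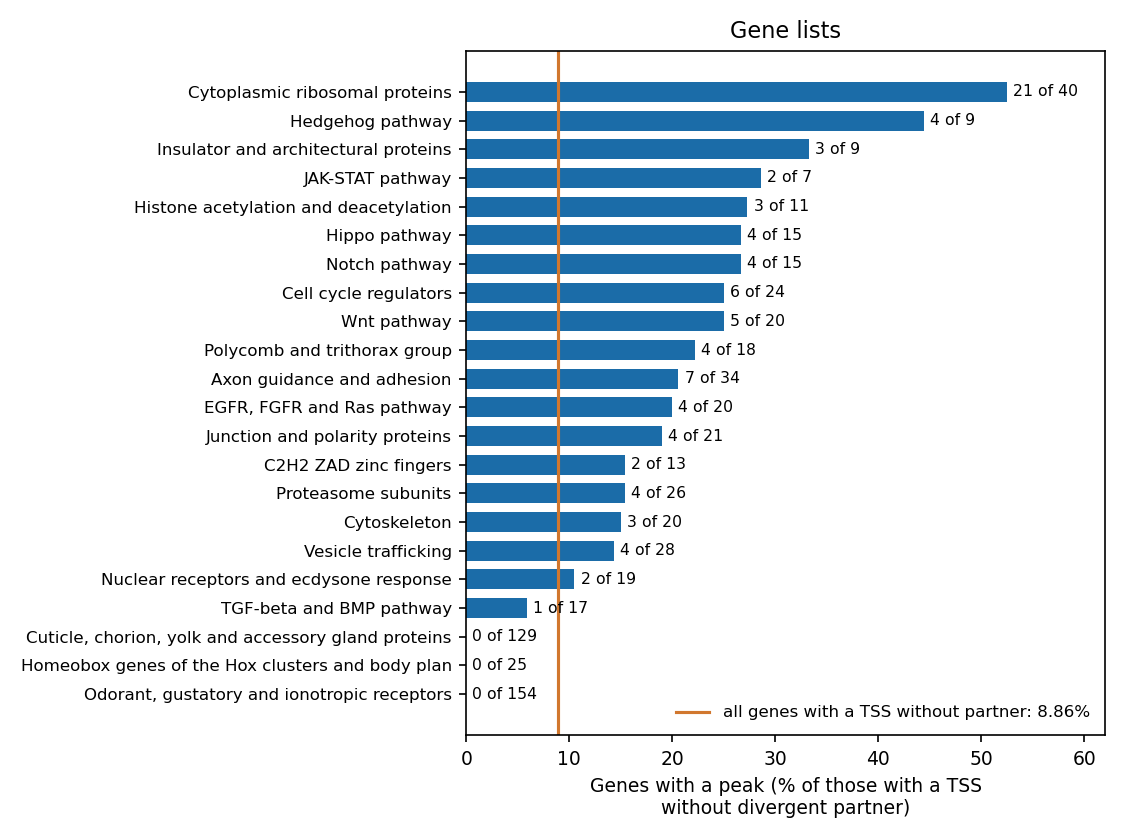
Share of genes with a peak (x axis, % of the genes of each list that have a TSS without divergent partner) for 22 gene lists (y axis), with the counts beside the bars; the orange line is the share over all 9654 such genes, 8.86%. Cytoplasmic ribosomal protein genes reach 52.5% and 3 lists are at 0.

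The peaks closest to each limit of the rule were weak on both sides. This does not hold for all peaks near the partner limit: Rpn11, with its partner at 1025 bp, had a signal of 4874, and CG14971, at 1138 bp, one of 8410. The farthest summits included were at Dyro (500 bp, signal 192) and foxo (499 bp, signal 265), and the nearest left out were at CG3638 (501 bp, signal 171) and Kank (505 bp, signal 289). CG11961 and CG9992, whose nearest head-to-head TSSs are 1007 and 1012 bp away, counted as without partner with signals of 262 and 284. RpS7 and SMC1, with partners at 1000 and 977 bp, counted as divergent with signals of 214 and 202.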

How the data were processed

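The 4 deposited peak lists are in narrowPeak format on dm6, per the labels. Per the readme files, a relaxed list per library was called against one control alignment that both libraries share, and IDR selection then used those lists. Neither the aligner nor the caller, nor the cutoff used in IDR, is given in the sources used here. The authors' signal per peak is a score whose scale is not stated; the deposited −log10 q-values were not used. The lists give no read counts, so depth and precision per peak are unknown. TSSs of protein-coding transcripts came from Ensembl release 115. The 984 peaks were compared with the 1004 at divergent promoters by two-sided Fisher's exact tests with Benjamini-Hochberg adjustment at 0.05, over 5 shares (the upstream share among them, whose test is not reported because the rule bears on it), 13 motifs and 6 arms, each repeated with each replicate's 3257 highest summits. A peak was found in a replicate when a summit lay within 100 bp. Motifs were searched within 50 bp of the summit, and 0.5 was added to every cell for odds ratios. Members and gene lists were chosen with earlier results of these data known. Genes named were those of the 20 highest peaks, up to 3 per list, up to 3 per motif that differed, those with the most peaks and those beside a threshold; ttv, gro, dos and the genes of other motif windows, of tandem, of noncoding and of chromosome 4 examples were chosen after their values were seen. Python 3.11.15, pandas 2.3.3 and scipy 1.17.1 were used, and the searches were tested on simulated data. Alternatives covered the windows, the partner distance, single replicates and the comparison class.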

Additional observations from a re-analysis of the deposited data

How the results depend on the processing

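Differences are in percentage points, promoters without partner minus the comparison class. The upstream share (5.2), which the partner distance in the rule limits, was 3.8 and did not pass with a 250 bp window, and 4.38 to 8.85 from single replicates. The signal share (−8.86) was −8.62 to −4.86 from single replicates, each set against the median of its own summits, and 7.05 against distal peaks. The share found in both replicates (−4) did pass with a 1000 bp window (−4.9), with partners within 500 bp (−7.45), against divergent pairs within 300 bp (−8.51), with summits within 200 bp (−6.08) and with partners judged at any TSS of the gene, an alternative chosen after seeing the data (−4.98); it also passed from replicate 2's list alone (−11) and, in the other direction, against distal peaks (5.11), and it was 1.59 from replicate 4's list alone and 0.866 in the upper part of the list, where it did not pass. From a single replicate's list, the share found in both replicates counts that list's summits matched in the other replicate. Internal TSSs (21.3, single replicates 19.5 to 22.6) and long genes (18.7, single replicates 16.1 to 18.7) kept direction and call under every alternative run. The contrast in internal TSSs is present in the annotation without any peak. The number of motifs that differed, 1 in the reported comparison, was 0 with a 250 bp window, in the upper part of the list and with 25 bp around the summit, 6 with 100 bp, 4 against distal peaks and 0 to 3 from single replicates. Against distal peaks the odds ratios of DRE (17.5) and Motif 1 (7.05) exceeded 1 and that of GAGA was 0.959. The number of arms that differed (3) was 1 against distal peaks, 3L, and 3 from both single replicates. The class held 492 peaks in the upper part of the list and 947 to 1056 from single replicates. Over the alternatives for 6 motifs (GAGA, DRE, Motif 1, the palindrome, the AGAGATG core and the Sry-beta consensus) and 6 arms, 107 values kept their call, 16 of them with an odds ratio on the other side of 1, 10 passed anew, 12 no longer passed and 3 changed direction with the comparison class. The cause of these changes was not tested. No paired analysis was possible because there is 1 group. The lists give no depth, and 2 replicates limit any statement on spread.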
